A study of Homo sapiens with 6 samples.

Results

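The RAB family was followed in HL60, an established human promyelocytic leukemia cell line, after treatment with tretinoin (all-trans retinoic acid), a ligand of the retinoic acid receptors known to drive these cells toward granulocytes. Members were the genes whose symbol is RAB, a number and an optional letter, and which had at least 1 probe set to themselves on the Affymetrix HG-U133A array. This rule used no measured value, but the family was chosen with earlier results of these data known. It gave 42 genes on 76 probe sets, of 11963 genes and 22283 probe sets in all. RAB4B, RAB6A, RAB6C and RAB6D were left out, because all of their probe sets were annotated to several genes. The DMSO group comprised 3 arrays of RNA from cells given 0.1% DMSO for 5 days, and the tretinoin group 3 arrays of RNA from cells given 1 μmol/l tretinoin in that same concentration of vehicle for that same time. The study describes them as hybridizations, run side by side, of 1 pool of labeled product per condition, so p-values measure the spread between hybridizations and not between cultures.

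RAB proteins are small GTPases that mark membrane compartments. In the GTP-bound form a RAB binds effectors that move, tether or fuse vesicles. Guanine nucleotide exchange factors (GEFs) switch a RAB on, GTPase-activating proteins (GAPs) switch it off, and a prenyl tail and the GDP dissociation inhibitors place it on or take it off membranes. In phagocytes, RAB proteins are best known for the maturation of phagosomes and for the release of granules.

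Values are MAS5 signals multiplied to bring each array to the mean of DMSO replicate 1 (factors 0.820 to 1.36). Signals below 20 were set to 20, the baseline of the study. Between 54.9% and 60.1% of probe sets lay above 20 on each array, and between 28 and 31 of the 42 RAB genes did so. A gene was represented by its brightest probe set, and a call required an adjusted p under 0.05 (limma, Benjamini-Hochberg over 13374 probe sets) and a change in the fit of 1.5-fold or more. The ratio of 3' to 5' signal of ACTB, a usual check on RNA and labeling, lay between 1.38 and 1.42 in DMSO and between 1.14 and 1.17 in tretinoin, while that of GAPDH was 1.06 to 1.19 on all 6. The part of that difference in the RAB results was not tested. HL60 markers were present on DMSO arrays, where the summed signal of 6 granule and myeloid genes was 3467 to 3991, mostly MPO (2914 to 3367). On tretinoin arrays the sum was 398 to 448, and 5 of the 6 were lower. ELANE was below 20 on all tretinoin arrays, and CEBPE, which was not lower, held most of the sum (226 to 246). Of 26 markers of T cells, B cells, erythroid cells, platelets, epithelium and fibroblasts, 12 were tested and none was called, with summed signals of 525 to 624 in DMSO and 566 to 628 in tretinoin. The markers CD3G, CD79B, EPB42, ALAS2, PPBP, EPCAM, KRT19, CDH1, COL1A2 and LUM stayed below 20 on all arrays. CD3E, HBB, ITGA2B, GP1BA, COL1A1 and DCN lay above 20 on all 6, COL1A1 highest at 61.1 to 97.5. The rest exceeded 20 on some arrays.

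Of the 42 RAB genes, 30 passed the filter of a signal above 20 on at least 3 arrays. RAB20, RAB31, RAB8B, RAB3D, RAB14, RAB1A and RAB5B rose in tretinoin, RAB27A fell, and 22 were not called. The share called in either direction, 26.7%, was close to the 27.9% of all 8161 genes tested. By direction, 23.3% of RAB genes rose and 3.33% fell, against 13.5% and 14.3% of all genes. The difference between these shares was not tested. The median log2 fold change was 0.19 over the 30 RAB genes and -0.04 over all genes. Since the samples are bulk RNA, a change in RNA per cell cannot be told apart from a change in the share of cells that hold it. Of the 30, 27 lay above 20 on all 6 arrays, and of these 5 rose and 1 fell. In a fit limited to such probe sets, 1355 of all 9376 rose and 1499 fell. With unscaled arrays the median over all probe sets went from -0.03 to -0.21 (log2 fold change), and 5 RAB genes were higher and 2 were lower. Of all 13289 probe sets tested without scaling, 1142 were higher and 2312 were lower.

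**Figure D1:**
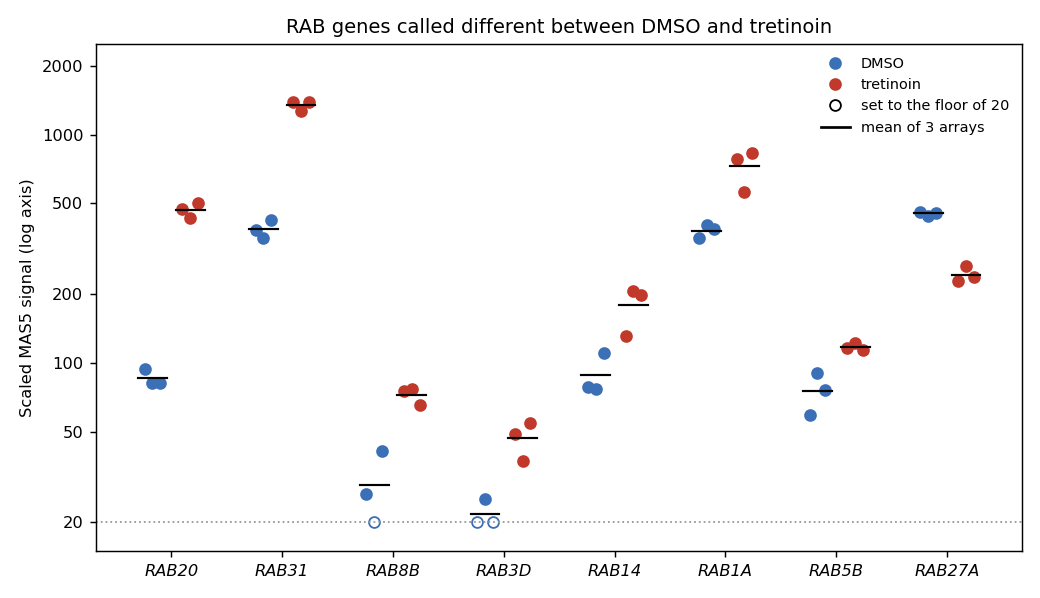
Scaled MAS5 signal (log axis) of the 8 called RAB genes on each of 3 DMSO arrays (blue) and 3 tretinoin arrays (red), each by its brightest probe set. Bars mark means, open circles values set to the floor of 20, and for none of the 8 do the conditions overlap.

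**Figure D2:**
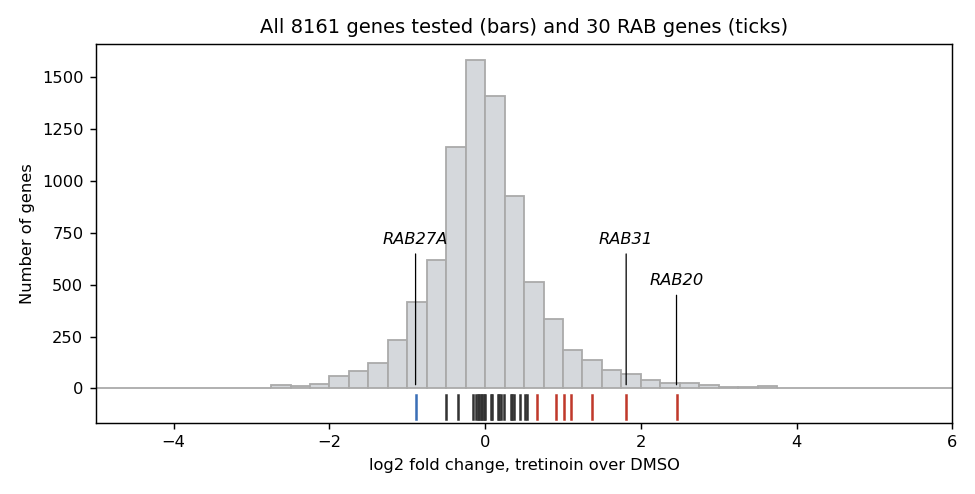
Number of genes (bars) by log2 fold change, tretinoin over DMSO, for all 8161 genes tested, with each of the 30 tested RAB genes as a tick below (red higher, blue lower, black not called). RAB20 and RAB31 lie in the right tail, and RAB27A is the only blue tick.

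Promoter windows are shown for 4 of the 6 called genes that have one. RAB31 and RAB5B are the risen genes with a motif marked here, RAB14 is a risen gene without one, and RAB27A fell. Each runs 5′ to 3′ over the 250 bases before a RefSeq start (GRCh38.p14). Capitals mark CACGTG, the E-box bound by MYC and related factors, and AGGTCA or GGGTCA, core elements of retinoid receptor sites, searched on both strands. RAB31 and RAB14 have 1 window in the table, RAB5B has 2 and RAB27A has 5, and for genes with several the most upstream is given.
RAB31, chr18:9708051-9708300, plus strand: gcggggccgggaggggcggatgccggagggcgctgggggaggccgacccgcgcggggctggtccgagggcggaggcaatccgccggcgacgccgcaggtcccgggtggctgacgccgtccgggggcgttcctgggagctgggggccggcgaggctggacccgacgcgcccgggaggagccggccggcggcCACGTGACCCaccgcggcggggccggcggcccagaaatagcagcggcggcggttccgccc
RAB5B, chr12:55973699-55973948, plus strand: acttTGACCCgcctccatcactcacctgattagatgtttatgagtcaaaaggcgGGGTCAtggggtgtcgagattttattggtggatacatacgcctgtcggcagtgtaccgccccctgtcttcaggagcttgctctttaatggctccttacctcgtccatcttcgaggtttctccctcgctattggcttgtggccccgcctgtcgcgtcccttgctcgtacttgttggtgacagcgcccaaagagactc
RAB14, chr9:121201870-121202119, minus strand: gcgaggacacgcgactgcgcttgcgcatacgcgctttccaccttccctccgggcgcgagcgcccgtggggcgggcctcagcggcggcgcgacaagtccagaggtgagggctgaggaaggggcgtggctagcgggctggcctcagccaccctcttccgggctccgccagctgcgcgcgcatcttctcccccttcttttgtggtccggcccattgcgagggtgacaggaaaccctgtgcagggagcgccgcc
RAB27A, chr15:55319124-55319373, minus strand: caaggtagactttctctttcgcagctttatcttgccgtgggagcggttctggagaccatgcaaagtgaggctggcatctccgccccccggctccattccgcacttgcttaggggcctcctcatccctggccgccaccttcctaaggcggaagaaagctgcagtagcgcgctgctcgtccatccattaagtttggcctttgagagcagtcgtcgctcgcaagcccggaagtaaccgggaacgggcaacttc
In the RAB31 window an E-box began 60 bases before the start and overlapped a core element that began 56 bases before it. The RAB5B window held core elements beginning 246 and 196 bases before the start, and the windows of RAB14 and RAB27A held neither motif. Those of RAB3D and RAB8B, which rose and are not printed, also held neither, so most risen genes with a window had no marked element. A core element was found in 5 and an E-box in 4 of the windows of 24 tested RAB genes, against 22.4% and 6.34% of all 35116 windows. None of these 24 windows, 1 for each gene, held core elements as a direct repeat with 5 bases between them, which 7 of all windows did. For so rare a match, none in 24 says little. Other spellings and spacings of retinoid receptor sites, and bases outside the windows, were not searched. The GC box GGGCGG was found in 22 of the 24, including all 6 windows of called genes, against 42.6% of all windows, and TATAAA in none, against 10.7%. The median GC content was 66.2% in the 24 windows and 58.0% in all. These sets are unlike, since the 24 are 1 window each of tested genes. All windows include several of some genes, and windows of genes not tested. The shares were not counted over all tested genes, so none of these differences is shown to be particular to RAB genes. The arrays measured nothing at these sequences, and a match is only a match of letters.

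The largest rises, those of RAB20 and RAB31, were of endosomal members. Of 12 tested, RAB20, RAB31, RAB14 and RAB5B rose (33.3%, against 13.5% of all genes), none fell and 8 were not called. Compartments were assigned with earlier results of these data known. RAB31 and RAB14 act at the trans-Golgi network as well and could have been listed there. The share therefore describes this grouping and is not a test of it. The median log2 fold change of the 12 was 0.45. Over the 3 tested members of the plasma membrane and other places it was 0.44. Of the 15 endosomal members on the array, RAB15, RAB17 and RAB25 did not pass the filter.

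RAB20, known from endosomes and phagosomes of macrophages, had scaled signals of 93.9, 81.3 and 81.4 on the DMSO arrays and 473, 433 and 504 on the tretinoin arrays. The lowest tretinoin array was several times the highest DMSO array. The mean rose 5.49-fold, from 85.5 ± 7.25 to 469.8 ± 35.7 (SD, n = 3 arrays each), with a log2 fold change of 2.46 ± 0.13 (SE; limma, adjusted p = 3.97e-05). This was rank 88 among the rises of all 8161 genes. RAB20 kept its call under each of 21 alternative settings, in which its log2 fold change ran from 2.26 to 2.53.

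RAB31 acts between the trans-Golgi network and endosomes and is also found on phagosomes. Its brightest probe set read 383, 354 and 422 on DMSO arrays and 1397, 1269 and 1395 on tretinoin arrays, with no overlap. It rose 3.50-fold, from 386 ± 34.1 to 1354 ± 73.3 (SD, n = 3; log2 fold change 1.81 ± 0.13 SE, limma adjusted p = 0.000115). The other probe sets of RAB31 rose more. On 217763_s_at the signal was 134, 143 and 153 in DMSO and 1637, 1424 and 1543 in tretinoin, a 10.7-fold rise and rank 40 among all 13374 probe sets. On 217762_s_at it was 87.5, 127 and 127 in DMSO and 854, 807 and 850.5 in tretinoin, a 7.36-fold rise. Thus all 3 probe sets rose, and the size of the rise depended on which was read. RAB31 kept its call under all 21 alternatives.

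RAB14, which also acts between the trans-Golgi network and endosomes, read 78.1, 76.7 and 110.2 on DMSO arrays and 131, 207 and 199 on tretinoin arrays. The highest DMSO array lay just below the lowest tretinoin array. The mean rose 2.03-fold from 88.3 ± 18.9 to 179 ± 41.4 (SD, n = 3; log2 fold change 1.01 ± 0.23 SE, limma adjusted p = 0.0150). Its probe set 200927_s_at rose 1.75-fold, from 46.9 ± 4.25 to 82.0 ± 4.02, and its probe set 200928_s_at stayed near the floor in both conditions (22.4 ± 3.73 and 22.0 ± 3.41). The call of RAB14 was lost without DMSO replicate 1, without DMSO replicate 2, without tretinoin replicate 3 and with no filter, with log2 fold changes of 0.92 to 1.01.

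RAB5 proteins drive fusion of early endosomes, and the RAB5 genes lay on either side of the fold minimum. RAB5B read 59.2, 90.1 and 76.0 on DMSO arrays and 116, 123 and 114 on tretinoin arrays, which did not overlap. It rose 1.57-fold (log2 fold change 0.67 ± 0.18 SE, limma adjusted p = 0.0251), and this call was the least stable of the 8. It was lost without DMSO replicate 1 or 3 and without any of the tretinoin replicates, where log2 fold changes were 0.51 to 0.69, and under 5 of the other settings. RAB5C read 144, 138 and 117 on DMSO arrays and 184, 215 and 179 on tretinoin arrays, again without overlap. Its brightest probe set differed by 1.45-fold (adjusted p = 0.0291, limma), short of the minimum, while its other probe set rose 1.96-fold from 94.0 ± 14.8 to 184 ± 19.4 (SD, n = 3). RAB5C was called without DMSO replicate 1 and when the probe sets of a gene were averaged. RAB5A read 192, 202 and 216 on DMSO arrays and 295, 273 and 304 on tretinoin arrays (1.43-fold, adjusted p = 0.0174, limma), and its dimmer probe set read 66.8 ± 22.7 and 67.9 ± 7.18 in the conditions.

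The remaining endosomal members showed smaller differences. RAB11A, which marks the recycling endosome, had means of 284 ± 14.5 in DMSO and 369 ± 18.6 in tretinoin (SD, n = 3), which did not overlap (1.30-fold, adjusted p = 0.0515, limma). RAB11B, its close relative, had means of 57.7 ± 9.36 and 58.8 ± 18.9. RAB4A, which acts in fast recycling, had 158 ± 8.62 and 152 ± 11.6, and the 95% interval of its log2 fold change ran from -0.36 to 0.24. RAB35 (138 ± 9.18 and 159 ± 17.8) and RAB21 (112 ± 15.3 and 125 ± 8.89) also overlapped between conditions. RAB22A depended on the probe set. Its brightest read 68.1 ± 15.3 in DMSO and 64.9 ± 17.5 in tretinoin, while 213405_at read 40.6 ± 17.3 and 71.8 ± 13.4, without overlap and without a call (adjusted p = 0.0945, limma).

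**Figure D3:**
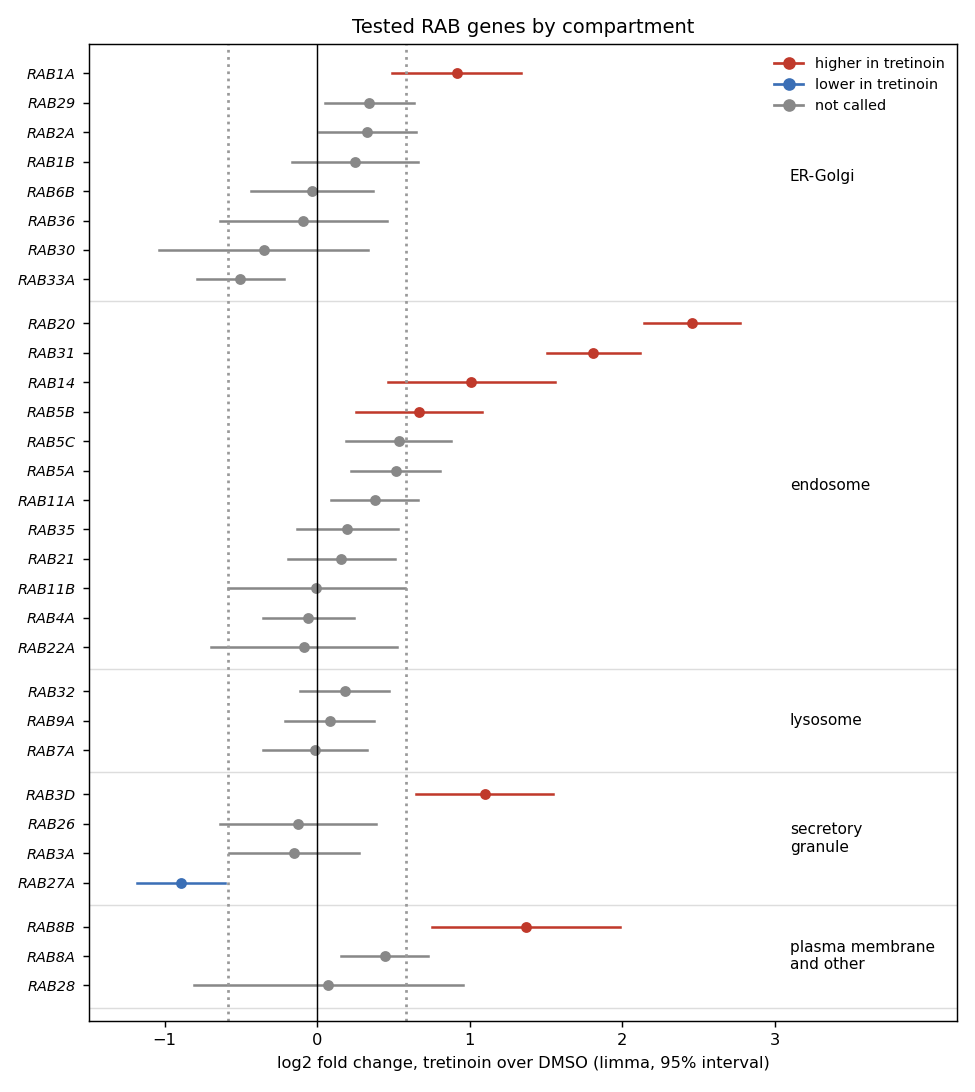
Log2 fold change, tretinoin over DMSO, of the 30 tested RAB genes by compartment, with 95% intervals from limma. Red genes were called higher, blue lower and gray not called, dotted lines mark 1.5-fold, and endosomal genes extend furthest to the right, up to 2.46 for RAB20.

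RAB27A docks secretory granules and lysosome-related organelles at the plasma membrane, and its loss causes an inherited immune deficiency. It was the only RAB gene that fell. Its brightest probe set read 459, 442 and 456 on DMSO arrays and 229, 265 and 238 on tretinoin arrays, with no overlap. The mean fell 1.85-fold, from 452 ± 9.35 to 244 ± 18.6 (SD, n = 3; log2 fold change -0.89 ± 0.12 SE, limma adjusted p = 0.00164). By its suffix that probe set, 210951_x_at, can hybridize with other transcripts. The other probe sets pointed the same way. On 209515_s_at the signal fell 2.29-fold, from 362 ± 17.1 to 158 ± 29.5, and on 222294_s_at 2.33-fold, from 167 ± 13.4 to 71.5 ± 15.97. On 209514_s_at it was 368 ± 55.3 and 254 ± 33.0, a 1.45-fold difference below the minimum (adjusted p = 0.0470, limma). The call of RAB27A was lost only with a minimum of 2-fold, among 21 alternatives.

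RAB3D, a RAB of regulated exocytosis, moved the other way, at low signal. It read 6.9, 25.3 and 12.5 on DMSO arrays, of which only 1 exceeded 20, and 48.9, 37.1 and 54.7 on tretinoin arrays. It was at least 2.15-fold higher (log2 fold change with the floor 1.10 ± 0.19 SE, limma adjusted p = 0.00448), and the call was lost with a floor of 40. RAB3D passed the filter mainly through its tretinoin arrays. Of the other secretory granule members, RAB26 had means of 47.9 ± 11.3 and 43.7 ± 8.06 (SD, n = 3). RAB3A stayed near the floor, with 28.1, 24.9 and 17.6 on DMSO arrays and 25.6, 15.5 and 17.3 on tretinoin arrays, which overlapped, and RAB3B and RAB27B did not pass the filter. Thus 1 of 4 tested members of this compartment rose and 1 fell (25% each way, against 13.5% and 14.3% of all genes). The median log2 fold change of the 4 was -0.14. That median was 0.053 without DMSO replicate 1 and -0.28 without DMSO replicate 3, so it gave the compartment no direction.

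Among ER-Golgi members, 1 of 8 tested rose (12.5%, against 13.5% of all genes) and none fell. RAB1A, which acts in transport from the endoplasmic reticulum to the Golgi, read 352, 400.4 and 388 on DMSO arrays and 784, 562 and 832 on tretinoin arrays. All tretinoin arrays lay above all DMSO arrays, although tretinoin replicate 2 was well below the other two. The mean rose 1.91-fold, from 380.1 ± 25.2 to 726 ± 144 (SD, n = 3; log2 fold change 0.92 ± 0.18 SE, limma adjusted p = 0.00766). The dimmer probe sets of RAB1A rose 1.80-fold, from 45.4 ± 8.23 to 81.7 ± 9.33, and 1.53-fold, from 55.5 ± 6.002 to 84.9 ± 7.92. The call was lost without scaling and with a minimum of 2-fold. RAB1B, the close relative with the same role, had overlapping means of 169 ± 24.7 and 201 ± 32.0 and a 95% interval of its log2 fold change from -0.17 to 0.66.

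RAB2A, which works between the same organelles, gave different answers on its 5 tested probe sets. The brightest, 208734_x_at, can by its suffix also hybridize with other transcripts. It read 122 ± 14.6 in DMSO and 152 ± 3.56 in tretinoin (1.25-fold, adjusted p = 0.111, limma). Only 208732_at was called, at 39.0 ± 0.926 and 62.6 ± 6.16, and log2 fold changes over the 5 ran from -0.10 to 1.10. Without a call, 208731_at read 47.6 ± 15.9 and 104 ± 40.2. The others were 208730_x_at, at 84.8 ± 11.8 and 87.0 ± 25.2, and 221960_s_at, at 27.1 ± 7.46 and 25.1 ± 5.93. RAB33A, of Golgi-derived vesicles, read 95.9, 96.0 and 101 on DMSO arrays and 69.9, 73.0 and 63.7 on tretinoin arrays. These did not overlap, but the 1.42-fold difference (adjusted p = 0.0178, limma) was short of the minimum, and RAB33A was called lower without scaling. RAB29, of the trans-Golgi network, read 57.7 ± 4.004 and 73.1 ± 3.05 without a call (adjusted p = 0.0729, limma). RAB6B, RAB30 and RAB36 had overlapping arrays, with log2 fold changes of -0.03, -0.35 and -0.09, and RAB33B did not pass the filter.

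None of 3 lysosomal members tested was called, where 27.9% of all genes were. RAB7A, which drives fusion of late endosomes with lysosomes, read 243, 194 and 232 on DMSO arrays and 205, 214 and 242 on tretinoin arrays. The arrays of the conditions overlapped, and the 95% interval of its log2 fold change, -0.36 to 0.33, left out a 1.5-fold change in either direction. RAB9A, which acts from late endosomes to the trans-Golgi network, had means of 99.4 ± 6.58 and 105 ± 6.18 (SD, n = 3), with an interval of -0.21 to 0.38. RAB32, of lysosome-related organelles, read 126, 141 and 133.2 on DMSO arrays and 141, 158 and 155 on tretinoin arrays, which overlapped, and its interval ran from -0.11 to 0.47. RAB38, its relative in pigment cells, stayed below 20 on all arrays.

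Members of the plasma membrane and of other places were few. Of 3 tested, 1 rose (33.3%, against 13.5% of all genes) and none fell. RAB8B, which carries vesicles from the Golgi to the plasma membrane, read 26.6, 3.08 and 41.0 on DMSO arrays, the second below the floor, and 75.5, 76.6 and 65.1 on tretinoin arrays. It was at least 2.48-fold higher (log2 fold change with the floor 1.37 ± 0.26 SE, limma adjusted p = 0.00680), and the call was lost with no filter. RAB8A, its close relative, read 295, 285 and 261 on DMSO arrays and 382, 363 and 397 on tretinoin arrays, without overlap. That difference was 1.36-fold (adjusted p = 0.0301, limma) and so below the minimum. RAB28 overlapped between conditions (43.2 ± 12.5 and 47.0 ± 18.4; SD, n = 3), and RAB13, RAB23, RAB40A, RAB40B and RAB40C did not pass the filter.

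The fold minimum decided several members. RAB5A, RAB5C, RAB8A and RAB33A had an adjusted p under 0.05 by limma with a change under 1.5-fold, so 12 RAB genes would be called without a minimum. Just inside the minimum lay RAB5B with a fitted change of 1.59-fold, and just outside RAB5C with 1.45-fold and RAB5A with 1.43-fold. The conditions did not overlap for 15 of the 30 tested genes, 7 of them not called, against 46.3% of all genes. For the 12 genes that did not pass the filter, the highest scaled signal on any array was 32.8, and the main fit left them out. With no filter all 42 RAB genes were fitted, and none of the 12 was called. At such low signal a difference in them could be missed.

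Among 16 genes with several tested probe sets, calls on brightest and other probe sets differed for RAB5C and RAB2A, where only a dimmer probe set was called, and for RAB14 and RAB27A, where 1 dimmer probe set was not. Over the 56 tested RAB probe sets, 14 rose (25%, against 13.6% of all probe sets) and 3 fell (5.36%, against 13.8%). The conditions did not overlap on 27 of the 56, against 46.0% of all probe sets. Several probe sets of 1 gene share its transcripts and are not independent.

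**Figure D4:**
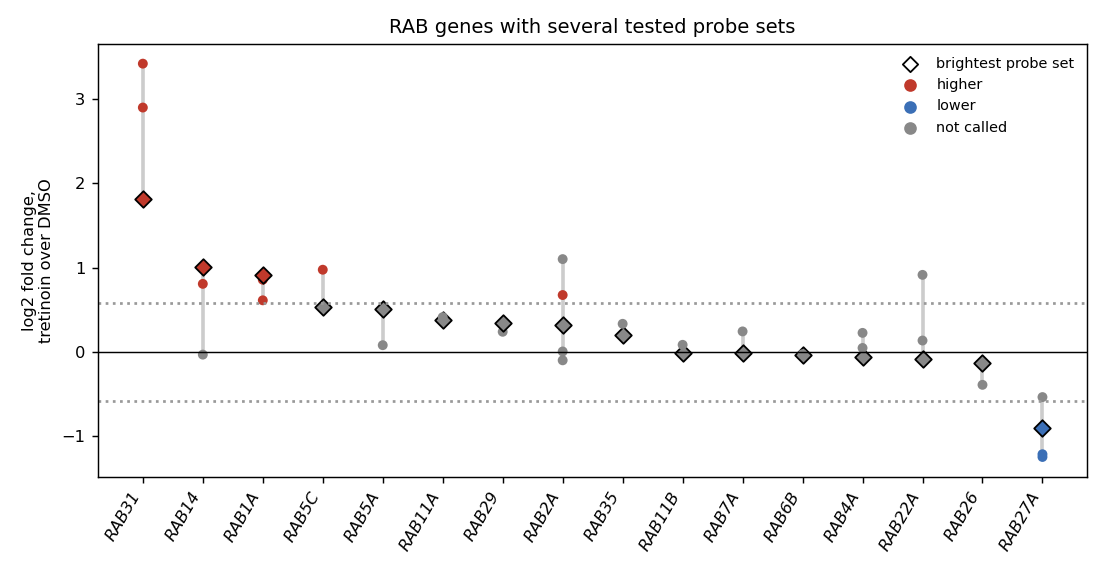
Each tested probe set of the 16 RAB genes with several, by its log2 fold change (tretinoin over DMSO). Diamonds mark the brightest probe set, colors the call and dotted lines 1.5-fold. The RAB31 points spread from 1.81 to 3.42 and the RAB27A points from -1.24 to -0.53.

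Of 150 genes listed as RAB machinery, 111 were on the array and 89 were tested. Of these 8 were higher and 5 were lower (8.99% and 5.62%), both below the shares of all genes. The median log2 fold change of the 89 was 0.24. Without DMSO replicate 3 the counts were 13 higher and 1 lower, and without DMSO replicate 1 they were 9 and 3. Of 34 exchange factors tested (11.8% higher and 5.88% lower, against 13.5% and 14.3% of all genes), DENND2D, TRAPPC8, RIN3 and DENND1B were higher and DENND5A and RIN1 were lower. RIN3, an exchange factor of RAB5 and RAB31, rose 1.81-fold from 116 ± 16.7 to 210 ± 21.7 (SD, n = 3; limma adjusted p = 0.00600), and RIN1, which acts on RAB5, fell 1.74-fold from 73.2 ± 8.90 to 42.2 ± 8.32. TRAPPC8, of a complex that acts on RAB1, rose 1.86-fold, and DENND1B, which acts on RAB35, 1.77-fold. DENND2D was at least 1.96-fold higher, and DENND5A fell 2.43-fold.

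Of 18 GAPs tested (11.1% each way, also below the shares of all genes), RABGAP1L and TBC1D1 were higher and TBC1D15 and TBC1D31 were lower. RABGAP1L exceeded 20 on only 1 DMSO array, at 24.1, and read 134, 128 and 150.2 on tretinoin arrays, at least 6.44-fold higher. RABGAP1L passed the filter mainly through its tretinoin arrays. DENND2D read below 20 on DMSO replicate 2, at 15.1, and TBC1D31 on all tretinoin arrays. In a fit limited to probe sets above 20 on all 6 arrays, 7 machinery genes were higher and 4 were lower. TBC1D1 rose 1.82-fold, TBC1D15 fell 1.58-fold and TBC1D31 was at the floor on all tretinoin arrays, at least 1.72-fold lower. TBC1D31 passed the filter only through its DMSO arrays. Of 32 effectors, only RAB11FIP1, which binds RAB11, was higher (1.90-fold), and GORASP2, a Golgi stacking protein that binds RAB2, was lower (1.52-fold). That is 3.13% each way, against 13.5% higher and 14.3% lower of all genes. Of 5 genes of prenylation and recycling, RABAC1, a membrane receptor for prenylated RABs, was higher (1.59-fold) and none was lower. That 1 gene is 20% of 5, against the same 13.5% of all genes.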

How the data were processed

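Total RNA from HL60 cells was amplified, labeled and hybridized by the authors to 6 HG-U133A arrays. For each of 22283 probe sets the deposited value is a MAS5 signal intensity on a linear scale, not scaled between arrays (the MAS5 version is not given in the sources used here). Following the methods of the study, arrays were scaled here to equal mean signal and values below 20 were set to 20. Log2 values of probe sets above 20 on at least 3 arrays entered a linear model with moderated variance (limma 3.58.1 and statmod 1.5.0 under R 4.3.3). Summaries and plots used Python 3.11.15, pandas 2.3.3, numpy 2.4.6 and matplotlib 3.10.9. The fit was tested on simulated data. Arrays were grouped by their titles.

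Probe sets with 1 annotated gene numbered 19071, with several 1043 and with none listed 2169. Symbols were matched by Entrez ID to RefSeq for 11954 of 11963 genes. A gene is shown by the probe set with the highest mean scaled signal among those annotated to it alone. Folds are ratios of means of floored signals, ± is the SD over arrays unless named SE, and a fold is a lower bound where an array of the lower condition is at the floor. The number of arrays limits precision.

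The members, compartments and machinery lists were chosen with earlier results of these data known. Compartments came from textbook locations, and many RABs act at several. Arrays are shown in full for each called member and for the uncalled member of each compartment with the largest change. The other members are given by their means, ranges or counts, and the arrays of RAB5A and RAB7A, DENND1B among the exchange factors and the windows printed were chosen after their values were seen. Alternatives were other scalings, floors, filters, variance models, fold minimums and probe sets, a replicate block, and each array left out.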

Additional observations from a re-analysis of the deposited data

How the results depend on the processing

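RAB20 and RAB31 were called higher under all 21 alternatives, and median, trimmed mean and quantile scaling, a floor of 10, and trend and robust variances gave the same 8 RAB genes. Higher RAB genes numbered 7, but 4 with no filter, 6 with an offset of 16, 8 with averaged probe sets and 10 with no fold minimum. They numbered 5 with a 2-fold minimum, a floor of 40, no scaling or signals above 20 on all 6 arrays. Lower RAB genes numbered 1, but 0 with a 2-fold minimum, 2 with no fold minimum and 2 without scaling. Leaving out each array gave 5 to 6 higher and 1 lower. Higher machinery genes numbered 8, but 1 with a 2-fold minimum, 3 without scaling, 12 with no fold minimum and 8 to 13 with each array left out. Lower machinery genes numbered 5, but 1 with a 2-fold minimum, 3 with no filter, 8 with no fold minimum, 8 without scaling, 3 with an offset of 16 and 1 to 7 with each array left out. Replicate numbers did not pair the arrays, since deviations of same-numbered arrays correlated at -0.03, -0.01 and 0.07, and with a replicate block the counts of RAB genes were again 7 higher and 1 lower, with 8 of 8 genes shared.

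Without scaling the compartment medians of log2 fold change were -0.10 (ER-Golgi, 0.11 as reported), 0.24 (endosome, 0.45), -0.12 (lysosome, 0.08) and 0.24 (plasma membrane and other, 0.44). The endosomal median was 0.36 with averaged probe sets and 0.20 with no filter. Above 20 on all 6 arrays the medians were -0.51 (secretory granule) and 0.26 (plasma membrane and other). With each array left out the medians ran from 0.046 to 0.19 (ER-Golgi), 0.40 to 0.46 (endosome), 0.036 to 0.13 (lysosome), -0.28 to 0.053 (secretory granule) and 0.39 to 0.48 (plasma membrane and other). The last was 0.027 with no filter and 0.91 with unsuffixed probe sets first.

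Signs turned only for genes that were not called. Without scaling the log2 fold changes were -0.12 for RAB9A, -0.044 for RAB21, -0.13 for RAB28, -0.023 for RAB32 and -0.0045 for RAB35. With averaged probe sets they were 0.073 for RAB4A, 0.12 for RAB7A, 0.041 for RAB11B and 0.32 for RAB22A. RAB4A stood at 0.23 with unsuffixed probe sets first, and RAB11B at 0.0069 with median scaling, 0.0010 with an offset of 16 and 0.014 with quantile normalization. With each array left out they ran from -0.11 to 0.0025 for RAB4A, -0.18 to 0.11 for RAB6B, -0.11 to 0.048 for RAB7A, -0.25 to 0.13 for RAB11B, -0.25 to 0.15 for RAB22A, -0.28 to 0.053 for RAB26, -0.19 to 0.46 for RAB28 and -0.30 to 0.10 for RAB36. The cause of these turns was not tested. Signals near 20 limit RAB3A, RAB3D, RAB8B and the 12 untested genes.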
